A study of Mus musculus with 6 samples.

Results

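The genes described here are 10 genes of the NRF2 antioxidant response and of ferroptosis, found in the table by their symbols: Nfe2l2, Keap1, Hmox1, Nqo1, Gclc, Gclm, Txnrd1, Slc7a11, Gpx4 and Acsl4. They are 10 of the 22442 genes listed in the deposited table, and all 10 had a mean above the level set for testing, as did 11723 genes in all. That level was a mean of 0.5 FPKM over the 6 libraries. Nqo1 had means of 0.492 FPKM in the control libraries, labelled LPS, and 1.56 FPKM in those labelled LPSKD. It thus reached the level only through the group where it was higher. FPKM is the number of sequenced fragments a gene received, divided by its length and by the library size, so that genes and libraries share a scale.

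RNA was sequenced from mTECs, a murine renal tubular epithelial line that the paper describes as immortalised and the sample labels as magnetically sorted. The labels give no genotype. All 6 libraries came from cells exposed for 24 h to 20 μg/ml of LPS, a bacterial lipopolysaccharide. Before this exposure, the 3 libraries labelled LPS received a negative control, and the 3 labelled LPSKD, which the series describes as its STAT3-silenced group, received an RNA that the labels give as an siRNA. For mouse Stat3 the paper lists an shRNA instead. No library without LPS belongs to the series, so a response to LPS itself could not be measured. The labels number the libraries within a group without saying whether they came from separate cultures, so the p-values measure only the spread between these libraries, which may be technical.

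NRF2, the protein of Nfe2l2, is a transcription factor that KEAP1 holds back by directing its degradation. When oxidants or electrophiles modify KEAP1, NRF2 accumulates and raises genes that make glutathione, regenerate thioredoxin, reduce quinones and break down heme. Ferroptosis is a form of cell death driven by iron and by peroxides of membrane lipids, and it is known in injured renal tubules. Cystine imported by SLC7A11 feeds glutathione synthesis, GPX4 spends glutathione to reduce lipid peroxides, and ACSL4 loads membranes with the polyunsaturated lipids that become peroxidised.

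Stat3, the targeted gene on chromosome 11, was measured at 34.6, 31.4 and 35.2 FPKM in the libraries labelled LPS and at 30.8, 35.2 and 34.3 FPKM in those labelled LPSKD. The groups overlapped, with a log2 fold change of -0.01 (SE 0.07, limma adjusted p = 0.944), and the 95% interval of the difference ran from -11.2% to 10.5%. The transcript did not separate the groups, so they are named throughout by their labels, LPS and LPSKD, and a difference between them is not read as an effect of lower Stat3. The paper reports Stat3 knockdown in mTECs by real-time PCR and western blot. It does not say whether those cells were the ones sequenced. Library totals were even, at 24084827 to 25422171 fragments. Correlations of log2 values between libraries lay between 0.9834 and 0.9921. Of the 13 tubular markers, Krt8, Krt18, Epcam and Cdh1 were abundant, while Slc34a1 of the proximal tubule was listed at 0 and Lrp2 reached at most 0.00869 FPKM. In bulk RNA, fewer cells of a type and less RNA per cell cannot be told apart.

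Of the 10 genes, 3 rose in the libraries labelled LPSKD and none fell: Slc7a11 by 22.1%, Gclm by 20.0% and Txnrd1 by 10.7% (limma, Benjamini-Hochberg adjusted p of 0.0372, 0.0166 and 0.0408). Among all 11723 genes tested, 379 passed the same threshold of 0.05, or 3.23%, with 184 (1.57%) higher and 195 (1.66%) lower. Nqo1 had the widest difference of the 10 but few fragments, and it did not pass the threshold. The other 6, which include Nfe2l2, Keap1 and Gpx4, did not pass it either. The 2 groups did not overlap for 5 of the 10 genes, Hmox1, Nqo1, Gclm, Txnrd1 and Slc7a11, all higher in the libraries labelled LPSKD, against 23.8% of all tested genes in either direction and 10.6% in that direction. The log2 fold change was above 0 for 9 of the 10 genes and for 47.5% of all tested genes, and its median was 0.111 over the 10 and -0.008 over all. Nqo1, counted among the 5 and the 9, reached the level for testing only through its LPSKD libraries. The 10 genes were chosen with earlier results of these data known, so these shares are not independent evidence.

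**Figure D1:**
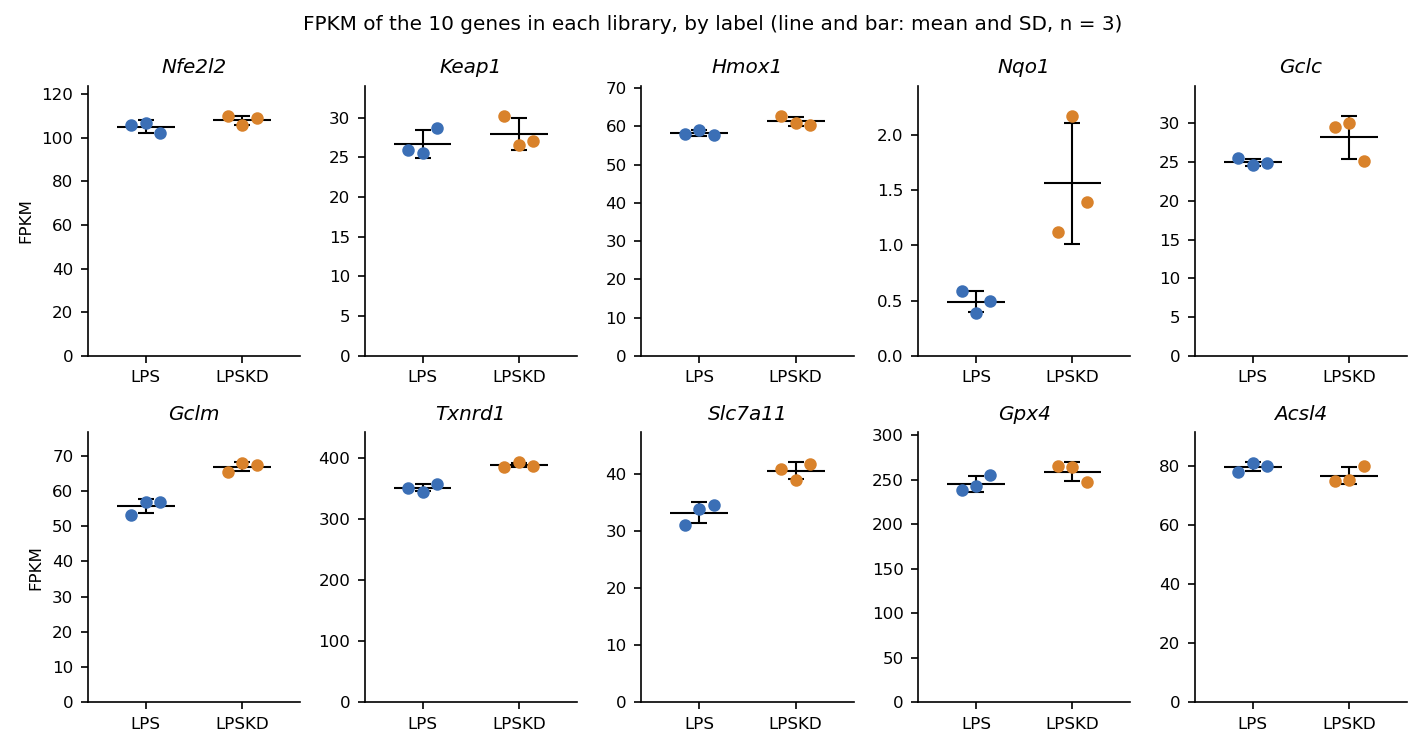
FPKM of each of the 10 genes in the 3 libraries labelled LPS (blue) and the 3 labelled LPSKD (orange), with the mean and SD of each group; the vertical axes start at 0 and differ between panels. The orange points lie above all blue points for Hmox1, Nqo1, Gclm, Txnrd1 and Slc7a11, and the groups overlap for the other 5 genes.

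The promoters of the genes that rose are shown because the pathway is defined by a sequence, the antioxidant response element bound by NRF2. STAT3, the factor the series describes as silenced, also binds a short motif. Of the 10 genes, 8 had promoters in the RefSeq table of mouse build GRCm38.p6, in 13 windows of 300 bases, from 250 before a transcription start to 50 after it. Hmox1 and Gclc had none in it. Both strands were searched for the core of the antioxidant response element, TGACNNNGC, and for the STAT site TTCNNNGAA, and matches of the 2 motifs did not overlap. The windows printed are those of Gclm, Slc7a11 and the second of 3 Txnrd1 starts, the only Txnrd1 window with both motifs, and capitals mark the matches:
Gclm, chr3:122245307-122245606, plus strand: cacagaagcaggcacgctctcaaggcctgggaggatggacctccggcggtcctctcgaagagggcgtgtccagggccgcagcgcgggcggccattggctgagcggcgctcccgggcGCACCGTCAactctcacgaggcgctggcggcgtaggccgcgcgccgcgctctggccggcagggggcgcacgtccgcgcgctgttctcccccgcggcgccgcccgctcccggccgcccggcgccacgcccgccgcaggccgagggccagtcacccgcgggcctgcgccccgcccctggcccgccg
Slc7a11, chr3:50443564-50443863, minus strand: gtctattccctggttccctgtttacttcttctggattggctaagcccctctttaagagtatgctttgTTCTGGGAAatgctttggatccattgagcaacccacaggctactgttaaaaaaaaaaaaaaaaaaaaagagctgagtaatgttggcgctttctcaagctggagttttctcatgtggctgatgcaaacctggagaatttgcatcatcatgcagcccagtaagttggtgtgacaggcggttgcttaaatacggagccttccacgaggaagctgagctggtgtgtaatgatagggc
Txnrd1, chr10:82858956-82859255, plus strand: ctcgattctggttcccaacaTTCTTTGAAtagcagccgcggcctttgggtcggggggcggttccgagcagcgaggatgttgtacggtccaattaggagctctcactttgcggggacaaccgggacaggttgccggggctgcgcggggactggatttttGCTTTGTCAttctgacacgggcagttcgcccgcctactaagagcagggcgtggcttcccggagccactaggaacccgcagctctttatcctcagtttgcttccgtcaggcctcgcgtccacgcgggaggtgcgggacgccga

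The Gclm window held the antioxidant core on its reverse strand, as GCACCGTCA, beginning at position -134 from the transcription start. The printed Txnrd1 window also held it on the reverse strand, as GCTTTGTCA at position -92, and a STAT site, TTCTTTGAA, at position -230. In the Slc7a11 window there was a STAT site, TTCTGGGAA, at position -183, and no match to the antioxidant core. Of the windows not printed, that of Nfe2l2 held the antioxidant core TGACTCCGC at position -240, and that of the third Txnrd1 start held the STAT site TTCCAGGAA at position -73. The antioxidant core thus occurred in 3 of the 13 windows, and in 12.4% of all 32851 RefSeq promoters of this length. The STAT site also occurred in 3 of the 13 windows, and in 8.3% of all promoters. These are letter matches in short windows. They show neither binding nor use, and the known response elements of these genes can lie further from the start.

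The sensor and the transcription factor differed little between the groups. Nfe2l2 (ENSMUSG00000015839; GRCm38 chromosome 2, 75675513 to 75704641, minus strand) was measured at 106, 107 and 102 FPKM in the libraries labelled LPS and at 110, 106 and 109 FPKM in those labelled LPSKD. The groups overlapped, and the log2 fold change was 0.04 ± 0.04 (SE; limma adjusted p = 0.626). With 4449 to 4964 fragments in each library, the 95% interval of the difference ran from -3.03% to 9.33%. NRF2 is controlled largely through the stability of its protein, which these libraries did not measure.

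Keap1 (ENSMUSG00000003308; chromosome 9, 21229730 to 21239361, minus strand) was measured at 25.9, 25.6 and 28.7 FPKM in the libraries labelled LPS and at 30.2, 26.5 and 27.1 FPKM in those labelled LPSKD. The highest and the lowest values of the groups crossed, with a log2 fold change of 0.06 ± 0.07 (SE; limma adjusted p = 0.717). An antisense gene, Gm16754, shares 22.8% of the 31-base stretches of the Keap1 coding sequence, and because no strand setting is given, fragments of the pair cannot be told apart. Within each library, the ratio of Nfe2l2 to Keap1 was 4.1, 4.2 and 3.54 under the LPS label and 3.62, 4.0 and 4.03 under the LPSKD label. These ratios overlapped.

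Of the glutathione-synthesis genes, the modifier subunit rose and the catalytic subunit did not pass the test. Gclm encodes the modifier subunit of glutamate-cysteine ligase, the enzyme that sets the pace of glutathione synthesis (ENSMUSG00000028124; chromosome 3, 122245557 to 122270732, plus strand). It was measured at 53.3, 56.9 and 57.0 FPKM in the libraries labelled LPS and at 65.5, 67.8 and 67.3 FPKM in those labelled LPSKD. Every LPSKD library lay above every library labelled LPS, and the group means were 55.7 ± 2.08 and 66.9 ± 1.17 FPKM (SD, n = 3). On the log2 scale the difference was 0.26 ± 0.04 (SE), or 12% to 28.6% at 95% confidence, with a limma adjusted p of 0.0166. The two-sided exact permutation test over the 20 assignments of labels gave p = 0.1, the smallest value that 3 against 3 libraries allow. The call held without LPS replicate 1 (adjusted p = 0.0298) or LPS replicate 2 (0.0331), and was lost without LPS replicate 3 (0.0572) or LPSKD replicate 1 (0.0579), 2 (0.0729) or 3 (0.0817). The log2 fold change stayed between 0.23 and 0.28 in these 6 fits. With all libraries kept, the call was lost with eBayes without trend (limma adjusted p = 0.0725).

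Gclc encodes the catalytic subunit of the same enzyme (ENSMUSG00000032350; chromosome 9, 77754535 to 77794485, plus strand). Its values were 25.5, 24.6 and 24.9 FPKM in the libraries labelled LPS and 29.6, 30.1 and 25.1 FPKM in those labelled LPSKD. The first and second LPSKD libraries lay above the LPS range and the third lay inside it. The log2 fold change was 0.17 ± 0.08 (SE; limma adjusted p = 0.293), with a 95% interval of the difference from -0.23% to 26.6%. Over the 6 fits without a library it ran from 0.12 to 0.25 (limma adjusted p from 0.115 to 0.555), and was highest without LPSKD replicate 3. The ratio of Gclc to Gclm was 0.478, 0.433 and 0.438 under the LPS label and 0.451, 0.444 and 0.373 under the LPSKD label, so the balance of the subunits did not separate the groups. Whether the changes of the subunits differ was not tested.

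Txnrd1 was the most abundant of the 10 genes and rose by a small amount that was larger than the spread between its libraries. It encodes cytosolic thioredoxin reductase, the selenoenzyme that uses NADPH to keep thioredoxin reduced (ENSMUSG00000020250; chromosome 10, 82833951 to 82897712, plus strand). It was measured at 351, 344 and 357 FPKM in the libraries labelled LPS and at 385, 392 and 387 FPKM in those labelled LPSKD. No value of one group reached the other, and the means were 351 ± 6.06 and 388 ± 3.41 FPKM (SD, n = 3). Its log2 fold change was 0.15 ± 0.03 (SE), or 5.49% to 16.1% at 95% confidence, with a limma adjusted p of 0.0408. Each library held 15777 to 18094 fragments of this gene, so counting error is 0.771% of a value. The call was lost whichever library was left out (adjusted p from 0.0546 to 0.142), and under quantile normalization it had a log2 fold change of 0.12 (adjusted p = 0.0966). It was also lost with no filter (adjusted p = 0.0704), eBayes without trend (0.167) and a block on the replicate number (0.1).

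Nqo1, the quinone reductase often used as a readout of NRF2 activity, was nearly silent in these cells (ENSMUSG00000003849; chromosome 8, 107388225 to 107403206, minus strand). Its values were 0.587, 0.391 and 0.498 FPKM in the libraries labelled LPS and 1.12, 2.17 and 1.39 FPKM in those labelled LPSKD. These correspond to 12, 8 and 10 fragments and to 23, 43 and 29 fragments. Every LPSKD library lay above every library labelled LPS, and the ratio of the means was 3.17. Its log2 fold change was 1.45 ± 0.33 (SE; 95% interval 0.7 to 2.2) with a limma adjusted p of 0.0567, so it missed the threshold. It passed in 1 of the 10 alternatives that kept all libraries, a filter at a mean of 0.1 FPKM (adjusted p = 0.0469), and its log2 fold change was 0.76 with a pseudocount of 1. Among all tested genes, 6.01% had a lower mean level.

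Hmox1 encodes heme oxygenase 1, which breaks down heme and releases iron (ENSMUSG00000005413; chromosome 8, 75093621 to 75100589, plus strand). It was measured at 57.9, 59.1 and 57.7 FPKM in the libraries labelled LPS and at 62.7, 60.9 and 60.3 FPKM in those labelled LPSKD. A narrow gap separated the groups. The means differed by 5.25% and the log2 fold change was 0.07 ± 0.04 (SE; limma adjusted p = 0.378). Its 1224 to 1359 fragments a library set a counting error of 2.79%, which is above the spread of either group (1.3% and 2.02%).

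Slc7a11 rose by the largest share of the 3 genes past the threshold. It encodes the transport chain of system xc-, which brings in cystine in exchange for glutamate (ENSMUSG00000027737; chromosome 3, 49892526 to 50443614, minus strand). It was measured at 31, 33.9 and 34.6 FPKM in the libraries labelled LPS and at 40.9, 38.9 and 41.7 FPKM in those labelled LPSKD. The lowest LPSKD value lay above the highest LPS value, and the means were 33.2 ± 1.9 and 40.5 ± 1.46 FPKM (SD, n = 3). A log2 fold change of 0.29 ± 0.06 (SE), or 11.4% to 33.8% at 95% confidence, had a limma adjusted p of 0.0372. As with Txnrd1, the call was lost whichever library was left out, with adjusted p from 0.0598 to 0.141 and log2 fold changes from 0.24 to 0.32. It was also lost with no filter (adjusted p = 0.0576), eBayes without trend (0.105) and a block on the replicate number (0.0794).

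The heavy chain that carries SLC7A11 to the membrane, Slc3a2, was far more abundant and did not pass the test. Its values were 337, 344 and 340 FPKM in the libraries labelled LPS and 325, 334 and 329 FPKM in those labelled LPSKD, with a log2 fold change of -0.05 ± 0.03 (SE; limma adjusted p = 0.483). The ratio of Slc7a11 to Slc3a2 was 0.0921, 0.0988 and 0.102 under the LPS label and 0.126, 0.116 and 0.127 under the LPSKD label. This ratio was higher in every LPSKD library than in any library labelled LPS. Slc3a2 itself was lower in every LPSKD library than in any library labelled LPS.

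Gpx4 and Acsl4, which act against and in favour of lipid peroxidation, did not pass the test. Gpx4, the glutathione peroxidase of membrane lipids (ENSMUSG00000075706; chromosome 10, 80047166 to 80056439, plus strand), was measured at 238, 243 and 255 FPKM in the libraries labelled LPS and at 265, 264 and 247 FPKM in those labelled LPSKD. The third LPSKD library lay within the LPS range, and the log2 fold change was 0.07 ± 0.04 (SE; limma adjusted p = 0.409; 95% interval of the difference -1.54% to 12.6%). Of the 31-base stretches of its coding sequence, 57.2% also occur in Gpx4-ps2 or AC122253.3, so its level is uncertain where counting split such fragments.

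Acsl4, the acyl-CoA synthetase for arachidonic and related acids (ENSMUSG00000031278; chromosome X, 142317993 to 142390535, minus strand), was measured at 77.9, 80.8 and 79.9 FPKM in the libraries labelled LPS and at 74.8, 75.2 and 79.9 FPKM in those labelled LPSKD. It was the only one of the 10 with a log2 fold change below 0, at -0.05 ± 0.04 (SE; limma adjusted p = 0.559), and the 95% interval of the difference ran from -9.83% to 2.92%. The ratio of Gpx4 to Acsl4 was 3.06, 3.01 and 3.19 under the LPS label and 3.54, 3.51 and 3.09 under the LPSKD label. The third LPSKD library, also the lowest of its group for Gclc, lay within the LPS range of this ratio, and the other 2 lay above it.

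**Figure D2:**
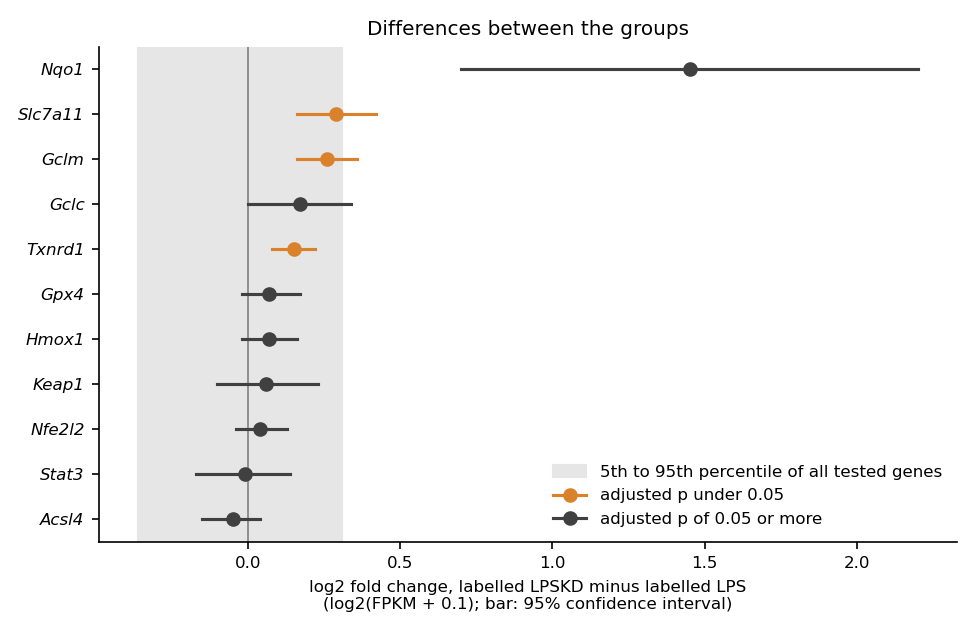
Log2 fold change of the 10 genes and Stat3 on log2(FPKM + 0.1), LPSKD minus LPS by label, with 95% confidence intervals from limma (n = 3 libraries a group); grey marks the 5th to 95th percentile of all 11723 tested genes, -0.36 to 0.31. The intervals of Slc7a11, Gclm, Txnrd1 and Nqo1 lie above 0, the first 3 with an adjusted p under 0.05, and the points of all genes except Nqo1 lie within the grey band.

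**Figure D3:**
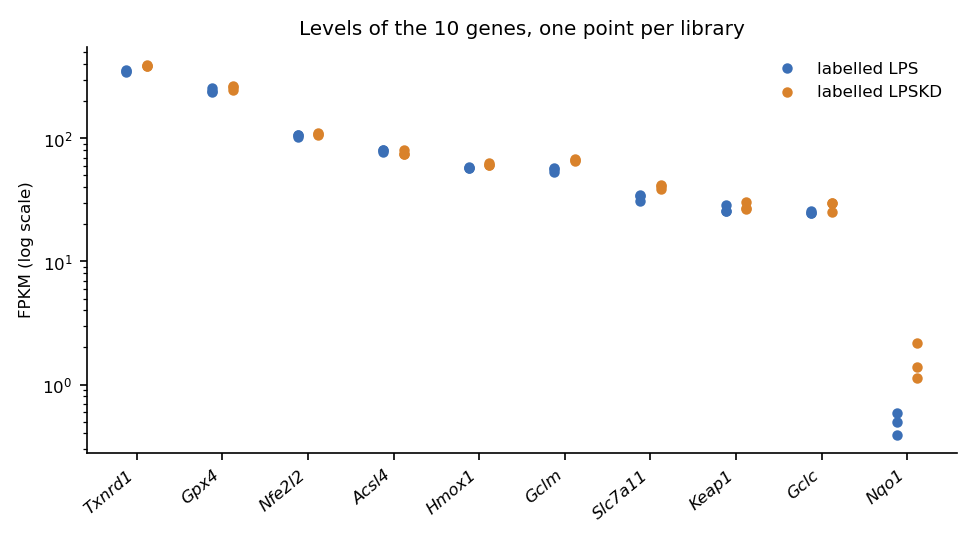
FPKM of the 10 genes on a log axis, 1 point per library, ordered by the mean of the libraries labelled LPS. The levels run from 351 FPKM for Txnrd1 to 0.492 FPKM for Nqo1, and the groups lie close together for every gene except Nqo1.

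Since FPKM is scaled to length, the levels of the 10 genes can be set against each other. The places of Gpx4 and Keap1 are uncertain, because 57.2% and 22.8% of their 31-base coding stretches also occur in other genes. In the libraries labelled LPS, the order by mean FPKM was Txnrd1, Gpx4, Nfe2l2, Acsl4, Hmox1, Gclm, Slc7a11, Keap1, Gclc and Nqo1, and the ranges of no neighbours overlapped. The narrowest steps were from Hmox1 (57.7 to 59.1 FPKM) to Gclm (53.3 to 57.0 FPKM) and from Keap1 (25.6 to 28.7 FPKM) to Gclc (24.6 to 25.5 FPKM). In the libraries labelled LPSKD, Gclm stood above Hmox1 without overlap, at 65.5 to 67.8 FPKM against 60.3 to 62.7 FPKM. Gclc and Keap1 overlapped there, at 25.1 to 30.1 FPKM and 26.5 to 30.2 FPKM. Txnrd1 and Gpx4 had higher means than 97.5% and 96% of all tested genes, and Keap1 and Gclc than 56.7% and 55.9%.

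**Figure D4:**
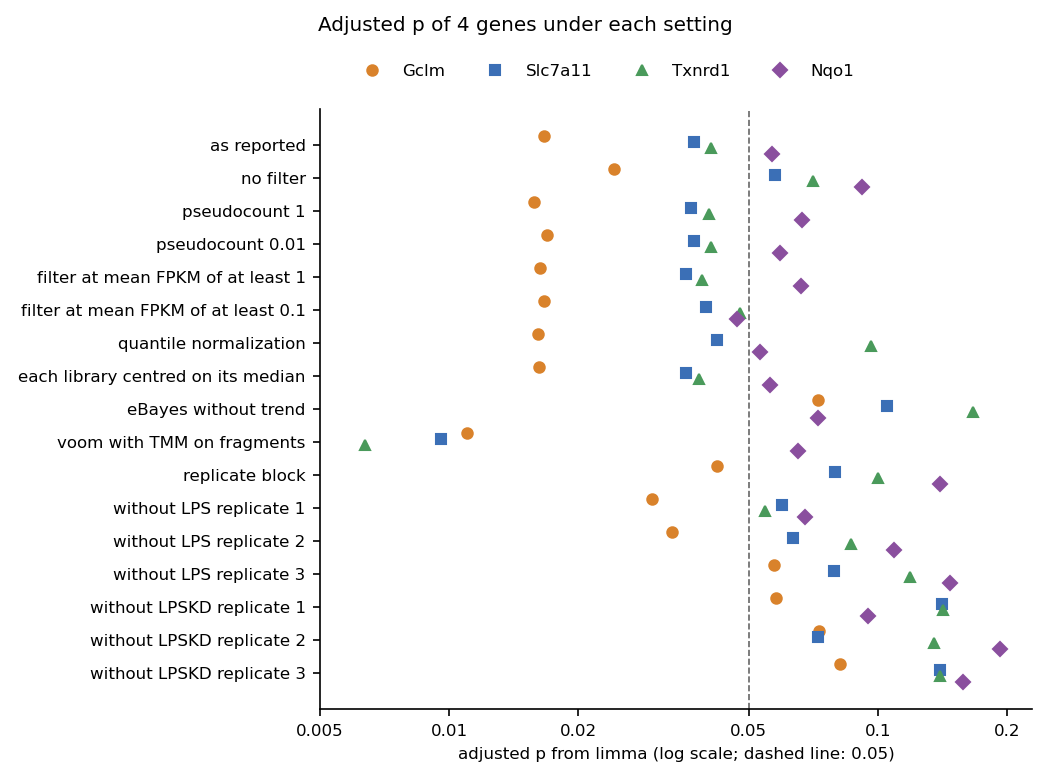
Adjusted p from limma (log axis, dashed line at 0.05) of Gclm, Slc7a11, Txnrd1 and Nqo1 in the reported fit, under the 10 alternatives that kept all libraries and without each of the 6 libraries; points of a row are offset vertically. Gclm lies under 0.05 in 9 of the 10 alternatives and without LPS replicate 1 or 2, while Slc7a11 and Txnrd1 lie above it in every fit without a library.

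Beyond the 10 genes, 140 others of the pathway were read in 7 lists from the same fit. Of these, 126 were tested, 14 rose and 2 fell in the libraries labelled LPSKD, so 12.7% passed the threshold against 3.23% of all tested genes. The lists were chosen with earlier results of these data known, and the 2 shares were not matched for expression level. The higher share is therefore not independent evidence about the lists. Their median log2 fold change was 0.03, with 76 of the 126 above 0, and they are described by these counts without a test of the lists. The groups did not overlap for 38 of the 126 with higher values in the libraries labelled LPSKD and for 15 with lower values, against 10.6% of all tested genes higher and 23.8% in either direction. Without 1 library, 8 to 16 of them passed, the fewest being 8 without LPS replicate 3 or LPSKD replicate 1 or 3 and 9 without LPSKD replicate 2. Of the 16 genes that passed, 8 did so in each of these 6 fits: Trim21, Osgin1, Gstm1, Gstm2, Srxn1, Hspb1, Pcbp1 and Pgd. With eBayes without trend, Trim21, Gstm1 and Hspb1 alone among the 16 passed (limma adjusted p = 0.0252, 0.0193 and 0.0481).

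Glutathione and quinone enzymes had 5 higher and none lower among 23 tested, with a median log2 fold change of 0.1. Gstm1 and Gstm2, which join glutathione to electrophiles, had the highest log2 fold changes of these 5. Gstm1 went from 146 ± 7.54 to 207 ± 3.47 FPKM (SD, n = 3), a log2 fold change of 0.50 with a limma adjusted p of 7.29e-04. Gstm2 went from 67.1 ± 6.05 to 94.5 ± 5.55 FPKM, a log2 fold change of 0.49 with an adjusted p of 0.00783. The coding sequences of this family share 31-base stretches (50.1% for Gstm1 and 31.9% for Gstm2), so their separate values are uncertain. Gstm5 (log2 fold change 0.35), the exporter Abcc4 (0.22) and the glutathione reductase Gsr (0.19) also rose. The call of Gstm5 was lost whichever library was left out (adjusted p from 0.0632 to 0.162), while Abcc4 kept its call in 3 of the 6 such fits and Gsr in 2. Gsr, which returns oxidised glutathione to its reduced form with NADPH, went from 160 ± 2.06 to 183 ± 1.73 FPKM (limma adjusted p = 0.0156). The abundant members Esd and Gsto1 had means of 441 and 404 FPKM under the LPS label and 506 and 433 FPKM under the LPSKD label, and neither passed.

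Among 21 tested thioredoxin, peroxide and superoxide genes, 2 rose and 1 fell. Srxn1, the sulfiredoxin that repairs over-oxidised peroxiredoxins, went from 53.4 ± 0.393 to 69.7 ± 5.17 FPKM (SD, n = 3; log2 fold change 0.38, limma adjusted p = 0.00896). Prdx6, a peroxiredoxin that also acts on phospholipid peroxides, went from 285 ± 2.5 to 322 ± 4.42 FPKM (0.18, 0.0186), and passed in 2 of the 6 fits without a library. Osgin1, a stress-response gene also counted among NRF2 targets, fell from 115 ± 2.9 to 92.2 ± 4.97 FPKM (-0.32, 0.0088). Thioredoxin itself, Txn1, the substrate of Txnrd1, did not pass: it was measured at 558, 696 and 639 FPKM under the LPS label and at 726, 733 and 719 FPKM under the LPSKD label (log2 fold change 0.21, limma adjusted p = 0.176). These groups did not overlap, and the spread lay mostly within the libraries labelled LPS. Prdx1, the other most abundant gene of this list, had means of 599 and 645 FPKM (0.11, 0.409).

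NADPH, which both Gsr and Txnrd1 consume, is supplied by the enzymes of 7 further genes, of which 2 rose and none fell. Pgd, an enzyme of the pentose phosphate pathway, went from 207 ± 7.1 to 248 ± 4.39 FPKM (SD, n = 3; log2 fold change 0.26, limma adjusted p = 0.00748). Me1, the cytosolic malic enzyme, went from 83.0 ± 2.58 to 96.9 ± 2.88 FPKM (0.22, 0.0285), with 67.5% of its 31-base stretches shared with other genes. Its call held in 1 of the 6 fits without a library (adjusted p from 0.035 to 0.121) and was lost under quantile normalization. Tkt, the most abundant of the 7, had means of 343 and 379 FPKM and did not pass (0.14, 0.105).

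Of 20 heme and iron genes, 4 rose and none fell. Pcbp1, a chaperone that hands iron to ferritin, went from 281 ± 8.15 to 339 ± 7.84 FPKM (SD, n = 3; log2 fold change 0.27, limma adjusted p = 0.00534). Slc40a1, the iron exporter ferroportin, went from 13.9 ± 0.843 to 18.1 ± 1.18 FPKM (0.38, 0.0388), and the heme transporter Slc48a1 from 29.4 ± 2.25 to 37.6 ± 2.39 FPKM (0.36, 0.0372). Cp, the ferroxidase ceruloplasmin, also rose (0.19, 0.04). The call of Slc40a1 was lost whichever library was left out, and those of Slc48a1 and Cp held in 1 of the 6 such fits. The ferritin chains Ftl1 and Fth1, the most abundant genes of the list, had means of 3110 and 1350 FPKM under the LPS label and 3300 and 1330 FPKM under the LPSKD label, and neither passed (adjusted p of 0.258 and 0.809).

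The remaining lists held few calls. Of 27 tested genes of ferroptosis lipids and cystine use, Hspb1 alone rose, from 711 ± 14.6 to 884 ± 28.4 FPKM (SD, n = 3; log2 fold change 0.32, limma adjusted p = 0.00256). Hspb1 is a small heat-shock protein known to protect cells from ferroptosis, and 90.3% of its 31-base stretches are shared with pseudogenes. Atf4, the stress factor that also controls Slc7a11, had means of 638 and 620 FPKM (-0.04, 0.53). Of 12 genes of selenoprotein synthesis and related selenoproteins, limma called none, 1 was at an unadjusted p under 0.05, and voom called 1. Selenof had means of 327 and 345 FPKM, and Selenok means of 87.9 and 110 FPKM (0.32, 0.0793).

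Of 16 tested regulators of NRF2, 1 fell and none rose. Trim21, a ubiquitin ligase that modifies p62, a protein that can sequester KEAP1, went from 6.51 ± 0.307 to 3.04 ± 0.482 FPKM (SD, n = 3; log2 fold change -1.08, limma adjusted p = 0.00549). It passed in each of the 6 fits without a library and in all 10 other alternatives. The study selected Trim21 with the help of these libraries, so its fall here is not independent evidence. Sqstm1, which encodes p62, had means of 964 and 997 FPKM (0.05, 0.473), and Nfe2l1, the relative of NRF2, means of 175 and 196 FPKM (0.16, 0.119).

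**Figure D5:**
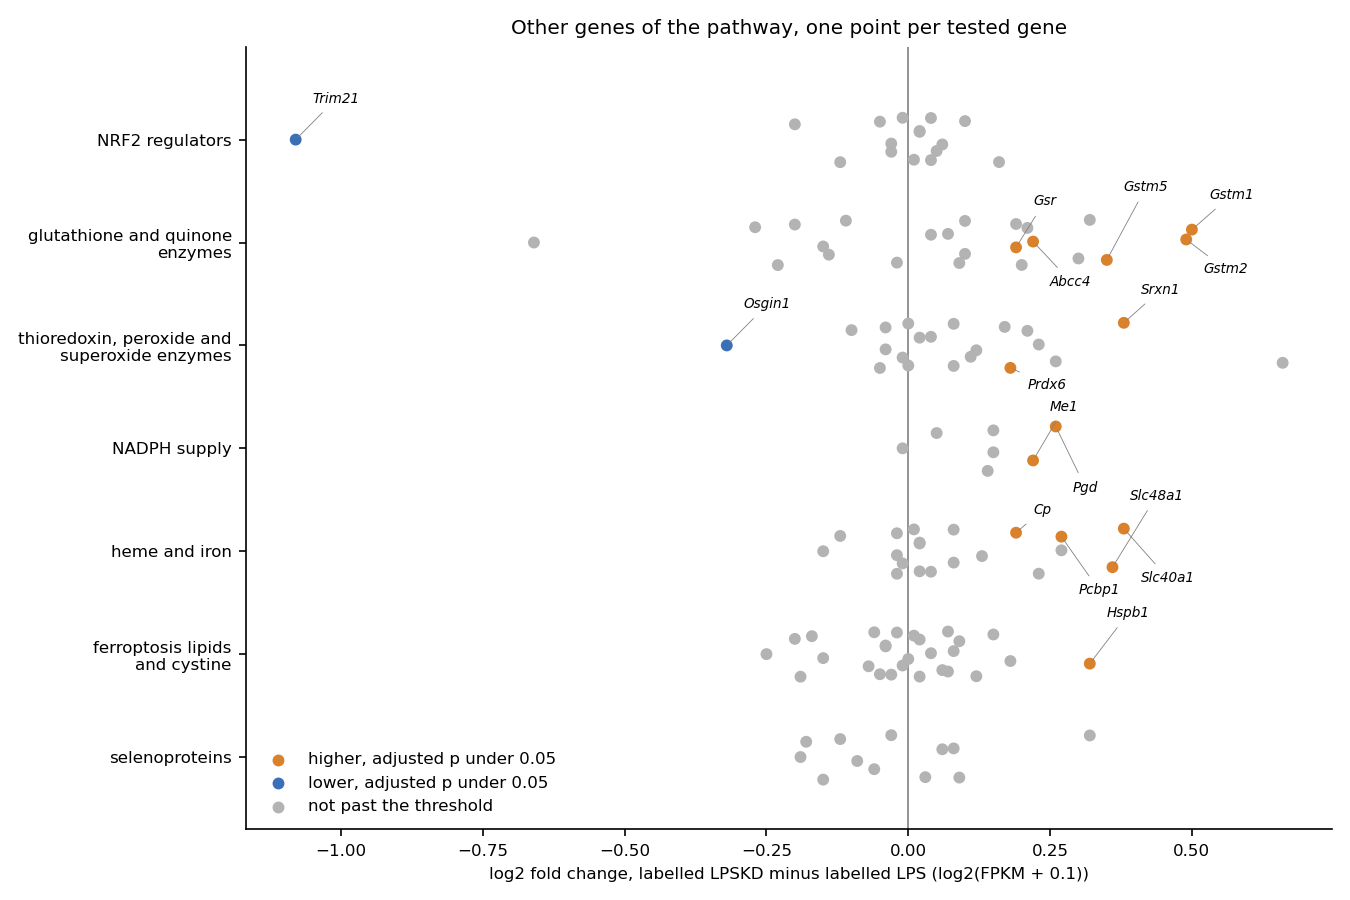
Log2 fold change on log2(FPKM + 0.1), LPSKD minus LPS by label, of the 126 tested genes in the 7 other lists, 1 point per gene with arbitrary vertical offsets; orange and blue mark genes higher and lower with a limma adjusted p under 0.05. Of the 14 orange points, 5 lie in the glutathione list, 4 in heme and iron, 2 each in the thioredoxin and NADPH lists and 1 in ferroptosis, and Trim21 and Osgin1 are the 2 blue points.

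Some tubular markers and 1 immune marker also differed between the labels. Of the tested tubular markers, 45.5% passed the threshold, against 3.23% of all tested genes. Of 11 tested tubular markers, 4 rose (Pax2, Pax8, Cdh16 and Aqp1, with log2 fold changes of 0.60, 0.39, 0.27 and 0.93) and Krt18 fell by 0.15 on the log2 scale, while the summed level of the 13 markers was 3820 to 3890 FPKM under the LPS label and 3810 to 3860 FPKM under the LPSKD label. Of 8 immune markers, 5 were tested and Csf1r rose, from 24.4 ± 2.74 to 33.3 ± 0.583 FPKM (SD, n = 3; limma adjusted p = 0.0208). The other 4 tested immune markers had log2 fold changes below 0, and the median of the 5 was -0.18. The summed level of the 8, which includes Csf1r, was 58.2 to 64.8 FPKM against 61.4 to 74.8 FPKM. Ptprc, which marks all leukocytes, had means of 0.88 and 0.818 FPKM, and Itgam means of 0.0226 and 0.0186 FPKM. Of 8 tested stromal and endothelial markers, limma called none, none was at an unadjusted p under 0.05, and voom called none, with sums of 27.4 to 36.5 FPKM against 20.3 to 35.8 FPKM. The part of these markers in the results above was not tested.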

How the data were processed

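RNA-seq libraries of mTECs were grouped by their titles into 3 labelled LPS and 3 labelled LPSKD. The authors deposited FPKM values, 1 per gene and library, without pooling. The submitters' processing notes name HISAT2 2.0, StringTie 1.3.0, Bowtie 0.12.2 and the builds mm8 and GRCh38.p13, without roles; the strand setting is not given in the sources used here. For 97.8% of the 16837 genes above 0, values were whole fragments (within 0.02) at the GENCODE M21 coding length (GRCm38) or up to 10 bases more, with library totals of 24084827 to 25422171. Counting errors come from these fragments and cover counting alone.

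Tests used limma 3.58.1 in R 4.3.3 (lmFit, eBayes with trend) on log2(FPKM + 0.1), where the mean reached 0.5 FPKM, with Benjamini-Hochberg adjustment over 11723 genes. Fold changes on this scale understate low genes. Exact permutation tests were two-sided. Ratios, lists and promoters were computed in Python 3.11.15 with pandas 2.3.3. The fit was tested on simulated data with fold changes larger than those of Gclm, Slc7a11 and Txnrd1. That test therefore does not show how often differences of their size are found. Alternatives were 2 other pseudocounts, 3 other filters, 2 scalings, eBayes without trend, voom with TMM on the fragments, a block on the replicate number, and each library left out in turn.

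The genes and lists were chosen with earlier results of these data known. Named besides the 10 are Stat3, Slc3a2, list genes past the threshold whose groups do not overlap (at most 20, by absolute log2 fold change), and the 2 most abundant genes of each list. The single cell type markers were named after their values were seen. The ChIP-seq, PCR and animal experiments were not analysed here.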

Additional observations from a re-analysis of the deposited data

How the results depend on the processing

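Over the 10 alternatives with all libraries, the 10 genes kept their direction in all 100 fits, with 91 on the same side of the threshold, 8 losing a call and 1 gaining one. Over the 6 fits without a library, 44 of 60 stayed on their side and 16 lost a call, again with no change of direction. Only Gclm, Slc7a11 and Txnrd1 had a call to lose. They kept it in 9, 7 and 6 of the 10 alternatives, and in 2, 0 and 0 of the 6 fits without a library. The number of the 10 genes past the threshold, 3 in the reported fit, was 1 with no filter, 0 with eBayes without trend, where 4 remained at an unadjusted p under 0.05 (voom called 3), 1 with the replicate block, and 0 to 1 without a library. Gclm was the gene left in each count of 1. Over all genes, the 379 calls became 140 with eBayes without trend, 594 with voom, 213 with the replicate block and 158 to 356 without a library. Of the other pathway genes, 16 calls became 3 with eBayes without trend, 25 with voom and 8 to 16 without a library. The log2 fold change of Stat3 ran from -0.06 to 0.04 without a library, with the opposite sign without LPS replicate 1 (0.00), LPS replicate 3 (0.02) or LPSKD replicate 1 (0.04). The cause of these changes was not tested. Same-numbered libraries did not deviate together (r = -0.016, -0.00388 and -0.0426). These correlations gave no sign of pairing, but they cannot show whether same-numbered libraries were handled together. The log2 fold changes of the 10 genes were the same under the block, so a call lost there is not read as a smaller effect. Depth limits Nqo1 most, at 8 to 43 fragments a library.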
